A study of Homo sapiens with 6 samples.

Results

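The ROBO receptors (ROBO1 to ROBO4), their secreted SLIT ligands (SLIT1 to SLIT3) and the SRGAP proteins (SRGAP1 to SRGAP3) were examined, 10 of the 58884 genes in the deposited table. Members were taken by gene symbol, and no member symbol appeared more than once. RNA was sequenced from untreated cells of KYSE70, an established line of human ESCC (esophageal squamous cell carcinoma) carrying a mutant NFE2L2, and of NRF2null-KYSE70, in which CRISPR-Cas9 editing left a frameshift in a coding exon of NFE2L2. NFE2L2 encodes NRF2, a transcription factor that drives antioxidant and detoxification genes. The paper reports that NRF2 was not completely lost in the edited line, where some NFE2L2 transcripts and a faint smaller protein band remained. Each line gave 3 libraries. NRF2null-KYSE70 is 1 clone, so a difference between the lines is a difference between that clone and its parental line. The spread within a line is that between its 3 libraries only. Whether these came from separate cultures is not stated in the sources used here.

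SLIT proteins are large secreted glycoproteins that bind the extracellular domain of ROBO receptors and are best known for repelling growing axons from the midline of the nervous system. A bound ROBO receptor recruits SLIT-ROBO GTPase-activating proteins (SRGAPs) and adaptors to its tail, and these act on the small GTPases RHOA, RAC1 and CDC42 and so on actin. In epithelia the same pathway affects cell adhesion and migration, and SLIT2 and ROBO1 are often silenced in carcinomas.

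In the fit across all genes (limma), 6 of the 10 members passed both an adjusted p below 0.05 and a change of at least 1 log2 unit, 4 of them higher and 2 lower in NRF2null-KYSE70. The share of all 15994 tested genes that passed both criteria was 14.7%, with 7.23% higher and 7.43% lower. ROBO1 and ROBO2 fell from about 200 normalized counts to almost none, ROBO4 rose from about 7 to 310 normalized counts, and ROBO3, SLIT2 and SLIT3 rose between 2.07- and 3.70-fold. SRGAP1 passed the adjusted p only, and SLIT1, SRGAP2 and SRGAP3 did not pass it, so that 7 of the 10 were past the adjusted p, against 57.6% of all tested genes. These 10 genes were chosen by family name with the normalized counts of the same 6 libraries, and the differences between the lines, already known. Their fold changes, and whether they passed the criteria, are therefore a description of these libraries and no independent test. No p is printed for them. A normalized count is the number of reads on a gene after the authors' scaling for library depth. All 10 members had a mean of at least 10 normalized counts and entered the fit, but ROBO1, ROBO2, ROBO4 and SLIT1 lay under 10 in one of the lines, so they passed that filter through the line in which they were high. Over the 10 members the median log2 fold change (log2FC, NRF2null-KYSE70 over KYSE70) was 0.69, against -0.01 over all tested genes, and the median absolute value was 1.17 against 0.36. Libraries of one line lay entirely above those of the other for 8 of the members and for 63.4% of all tested genes.

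**Figure D1:**
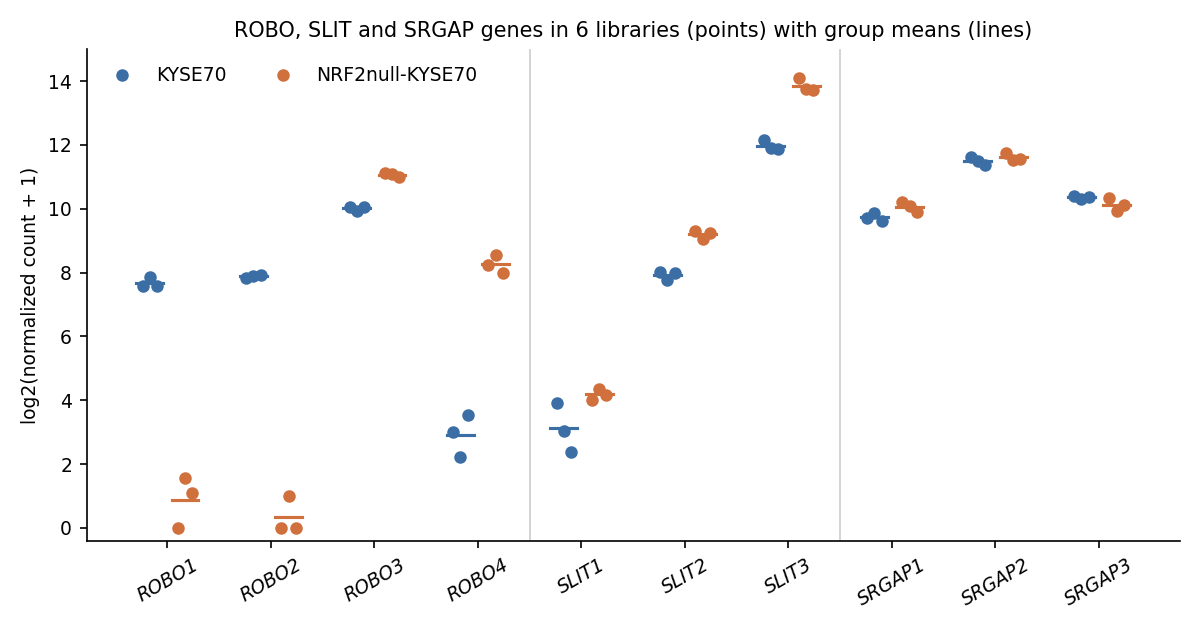
Level of each member in every library, on the log2(normalized count + 1) scale, with 1 point per library and a line at the mean of the 3 libraries of each line. ROBO1 and ROBO2 sat near 0 in NRF2null-KYSE70, ROBO4 was low in KYSE70 (8, 4 and 10 reads) and high in NRF2null-KYSE70, and the points of SRGAP2 and SRGAP3 overlapped.

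Each library held between 52072801 and 63975313 reads on genes, the deepest 1.23 times the shallowest. Library 1 of NRF2null-KYSE70 stood apart from the other 2 of its line, with a chi-square per degree of freedom of 23.0 and 23.4 against 4.59 between those 2. Without it the same 6 members passed both criteria. The targeted gene NFE2L2 was at 9928 ± 102 normalized counts in KYSE70 and at 6093 ± 318.8 in NRF2null-KYSE70 (SD, n = 3 libraries), a log2FC of -0.71 (SE 0.049, limma adjusted p = 9.37e-08), and a count over the whole gene does not show which sequence it carries. All 10 squamous epithelial markers, among them the keratin KRT5 and the transcription factor TP63, were present in both lines, with a summed level of 436397 to 447591 normalized counts in KYSE70 and at 328617 to 344653 in NRF2null-KYSE70. On the adjusted p 5 of the 10 were lower in NRF2null-KYSE70, KRT5 and TP63 among them, and 4 were higher (KRT6A, CDH1, EPCAM and DSP). Over all tested genes 28.3% were lower and 29.3% higher on the adjusted p. Markers of fibroblasts summed to 1384 to 1618 normalized counts in KYSE70 against 485 to 638 in NRF2null-KYSE70. Most of this was COL1A1 (3919 against 1587 reads) and COL3A1 (813 against 24 reads), both lower in NRF2null-KYSE70 past both criteria. Decorin (DCN) had 0 reads in both lines and PDGFRB 0 against 41 reads. Leukocyte markers summed to at most 10.5 against 40.2 to 47.9 normalized counts, nearly all of the latter PTPRC (1 against 125 reads). Neuronal markers summed to 71.1 to 118 against 20.3 to 95.1. Among them SYT1 (198 against 60 reads) was lower in NRF2null-KYSE70 past both criteria. SNAP25 (60 against 77 reads) did not pass the adjusted p, and the others were too low to be tested.

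ROBO1 (ENSG00000169855, chr3:78597239-79767998 on hg38, minus strand) encodes a SLIT receptor found in neurons and many epithelia. It was at 191, 231 and 189 normalized counts in the 3 KYSE70 libraries and at 0, 1.96 and 1.14 in the 3 NRF2null-KYSE70 libraries. All KYSE70 libraries were therefore high, all NRF2null-KYSE70 libraries were at or next to 0, and nothing lay between. In whole reads these were 649 over KYSE70 and 3 over NRF2null-KYSE70. The mean fell from 204 ± 23.9 to 1.03 ± 0.985 normalized counts, that is to 0.508% of the KYSE70 level, a log2FC of -6.78 (SE 0.473). From the reads alone the KYSE70 level was 196 times that of NRF2null-KYSE70, with an exact 95% interval of 66.9 to 955 that covers counting error only. In bulk RNA, fewer cells with a transcript and less transcript per cell cannot be told apart.

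ROBO2 (ENSG00000185008, chr3:75906695-77649964, plus strand) encodes the receptor most like ROBO1 and lies beside it, 0.947 Mb away. It was at 226, 238 and 245 normalized counts in KYSE70 and at 0, 0.981 and 0 in NRF2null-KYSE70. A single read in a single library was all that remained against 748 in KYSE70. The mean went from 236 ± 9.48 to 0.327 ± 0.566 normalized counts, 0.138% of the KYSE70 level, with a log2FC of -7.56 (SE 0.451). The ratio from the reads was 679, with an exact 95% interval of 121 to 26848 that again covers counting error only. Of all tested genes, 31 (0.194%) had a log2 fold change at or below that of ROBO1. The size of both fitted fold changes depends on the pseudocount, and with each NRF2null-KYSE70 library set at 3 reads ROBO1 fell by 5.62 log2 units or more and ROBO2 fell by 5.84 or more.

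The promoters of both genes, from 250 bases before to 50 bases after the start of transcription, are shown because these are the receptors whose RNA was nearly absent from the clone, and their base composition is unlike. The sequences are from RefSeq on GRCh38.p14. All 10 members were found in that table, with 14 windows in all, and the window that holds the main start in GENCODE v44 was used for each. Capitals mark motif matches on either strand among an antioxidant response element core (TGACNNNGC, bound by NRF2 with small MAF proteins), an AP-1 site (TGANTCA) and a GC box (GGGCGG, bound by SP1).
ROBO1 promoter, chr3:79767949-79768248, minus strand: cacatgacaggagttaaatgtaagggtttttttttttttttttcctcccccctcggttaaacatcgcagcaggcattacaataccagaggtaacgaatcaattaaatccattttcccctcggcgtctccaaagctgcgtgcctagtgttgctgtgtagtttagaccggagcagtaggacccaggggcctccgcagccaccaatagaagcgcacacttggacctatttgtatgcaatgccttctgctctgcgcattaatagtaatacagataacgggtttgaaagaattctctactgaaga
ROBO2 promoter, chr3:77039849-77040148, plus strand: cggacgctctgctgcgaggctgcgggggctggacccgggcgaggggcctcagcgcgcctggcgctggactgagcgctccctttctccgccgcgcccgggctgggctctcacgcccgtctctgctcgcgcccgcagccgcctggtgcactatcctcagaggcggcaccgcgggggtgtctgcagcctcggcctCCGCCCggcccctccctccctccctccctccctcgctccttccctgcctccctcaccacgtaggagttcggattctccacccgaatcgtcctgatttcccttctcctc
The ROBO1 window held 11 CpG dinucleotides at 45.3% GC and no match to the 3 motifs. The ROBO2 window held 31 CpG at 72.3% GC and a single GC box, which is found in 44.95% of the 35116 human promoter windows of the same length. The median over those windows was 14 CpG and 58.7% GC. The ROBO1 window shown was therefore poorer and the ROBO2 window shown richer in CpG than the median. In the other window of each gene the order was reversed, with 15 CpG at 56.7% GC for ROBO1 and 7 CpG at 46.7% GC for ROBO2. Which start these cells use was not tested.

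The low level of RNA was not limited to the 2 receptor genes. Between PPP4R2 and CHMP2B, the nearest clearly expressed protein-coding genes on either side, lies a stretch of 14.2 Mb on the short arm of chromosome 3 with 101 genes of the table, of which 10 had at least 10 reads over the 6 libraries. This stretch was chosen after the values were seen. GBE1 (chr3:81489703-81761645), the glycogen branching enzyme, lies 1.72 Mb beyond ROBO1 and was at 1478, 1627 and 1591 normalized counts in KYSE70 and at 2.03, 6.86 and 12.6 in NRF2null-KYSE70, with a log2FC of -7.83 (SE 0.404, limma adjusted p = 5.87e-09). LINC00960, a non-coding RNA on the other side of ROBO2 (chr3:75672251-75742048), had 262 reads in KYSE70 and 0 in NRF2null-KYSE70, where 3 reads in each library would be the limit of detection. So 4 consecutive expressed loci, LINC00960, ROBO2, ROBO1 and GBE1, were at or near 0 in every library of the clone.

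At the edges of the same stretch RNA was present in both lines. The pseudogene FAM86DP, which lies before LINC00960, was at 580 normalized counts in KYSE70 and at 373 in NRF2null-KYSE70, and the pseudogene HNRNPA3P6 at 88.1 and 122.9. The remaining genes with at least 10 reads were LINC02005 with 8 and 10 reads and the processed pseudogenes AC026877.1 (6 and 12 reads, inside ROBO2), CYP51A1P1 (10 and 5 reads) and PPATP1 (3 and 12 reads). Processed pseudogenes are near copies of genes elsewhere and can share their reads. PPP4R2, a regulatory subunit of protein phosphatase 4, was higher in NRF2null-KYSE70 by 0.33 log2 units (SE 0.045, limma adjusted p = 3.4e-05), and CHMP2B, a subunit of the membrane-remodelling complex ESCRT-III, was lower by a log2FC of -0.52 (SE 0.057, limma adjusted p = 5.31e-06). EBLN2, also on the PPP4R2 side, had few reads and a log2FC of 0.77 (SE 0.427, limma adjusted p = 0.143). The median over 316 genes of the arm was -0.48, and relative to it PPP4R2 was at 0.81, CHMP2B at -0.04 and EBLN2 at 1.25. SRGAP3, further out on the same arm, is described with the SRGAP genes. The DNA of this stretch was not measured here.

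**Figure D2:**
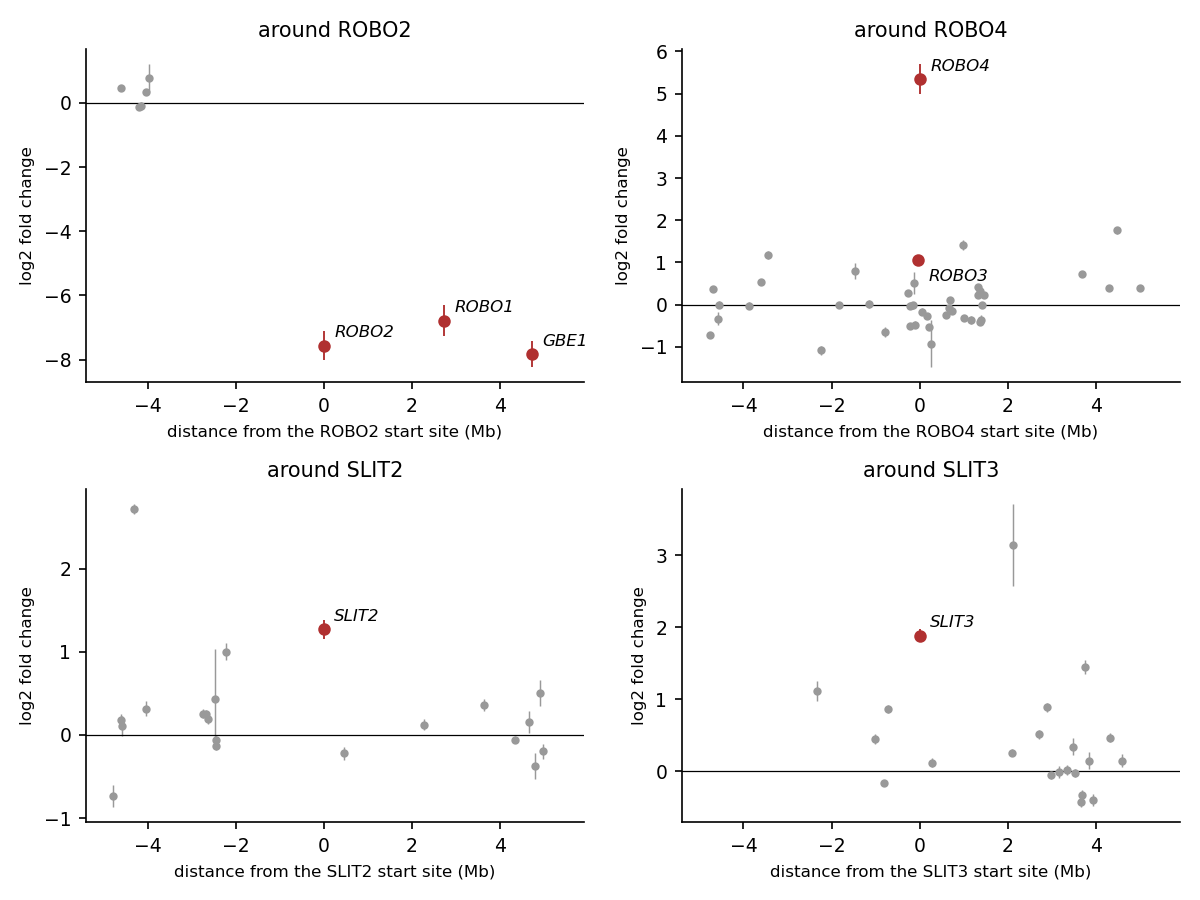
Log2 fold change (NRF2null-KYSE70 over KYSE70, bars show the SE) of tested protein-coding genes within 5 Mb of the start sites of ROBO2, ROBO4, SLIT2 and SLIT3, by distance in Mb. ROBO2, ROBO1 and GBE1 all lay below -6 with the genes before them between -0.13 and 0.77, whereas ROBO4, SLIT2 and SLIT3 stood above most of their neighbours (members and GBE1 in red).

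ROBO3 (ENSG00000154134, chr11:124865432-124881471, plus strand) encodes a divergent receptor which in mammals binds SLITs poorly and binds NELL2 instead. It was at 1073, 978 and 1068 normalized counts in KYSE70 and at 2245, 2185 and 2033 in NRF2null-KYSE70, so the lowest library of the clone was well above the highest of the parental line. The mean rose from 1040 ± 53.7 to 2154 ± 109 normalized counts, 2.07-fold, with a log2FC of 1.05 (SE 0.069). This value lies next to the threshold of 1, and with scaling to total reads it was 0.97 and ROBO3 no longer passed. Its adjusted p stayed below 0.05 under every alternative run.

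ROBO4 (ENSG00000154133, chr11:124883691-124898500, minus strand) encodes a shorter receptor best known from vascular endothelium, where it stabilises vessels. It was at 7.11, 3.63 and 10.5 normalized counts in KYSE70, from 8, 4 and 10 reads, and at 302, 372 and 256 in NRF2null-KYSE70, from 298, 379 and 224 reads. Each library of the clone thus held more than 200 reads of a gene with at most 10 in any parental library. The mean rose from 7.10 ± 3.46 to 309.9 ± 58.3 normalized counts, 43.7-fold, with a log2FC of 5.34 (SE 0.348). The ratio from the reads was 45.1, with an exact 95% interval of 29.6 to 72.4 that covers counting error only and not the spread between libraries. Of all tested genes, 30 (0.188%) had a log2 fold change as high or higher.

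Of 5 endothelial markers, 3 were at or next to 0 in both lines. PECAM1 had 0 reads in KYSE70 and 1 in NRF2null-KYSE70, CDH5 had 0 and 1, and EMCN had 4 and 0. The other 2 of the 5 markers, VWF (von Willebrand factor) and TEK (the angiopoietin receptor TIE2), were higher in NRF2null-KYSE70, VWF at 142 ± 8.46 against 353 ± 88.8 normalized counts and TEK at 7.13 ± 6.44 against 32.3 ± 15.2. The summed level of the list was 137 to 162 normalized counts in KYSE70 and at 293 to 499 in NRF2null-KYSE70, most of it VWF. Whether the same cells carried ROBO4 and VWF was not tested.

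ROBO3 and ROBO4 lie tail to tail, 2.22 kb apart, with their start sites 32.4 kb from each other. Both were higher in NRF2null-KYSE70. In the fit across all genes no tested protein-coding gene directly beside the pair passed the adjusted p as higher. Next to ROBO3, MSANTD2 had a log2FC of -0.47 (SE 0.088, limma adjusted p = 0.000508) and ESAM, an endothelial cell adhesion molecule, 0.52 (SE 0.258, limma adjusted p = 0.104). ESAM did pass the adjusted p as higher under quantile scaling (0.65) and without KYSE70 library 2 (0.72). Next to ROBO4, CCDC15 had -0.17 (SE 0.079, limma adjusted p = 0.0923) and SLC37A2, a sugar phosphate transporter, -0.27 (SE 0.045, limma adjusted p = 0.000233). Among the 41 tested protein-coding genes within 5 Mb of ROBO4 the median was -0.01, from -1.08 for UBASH3B to 1.76 for BARX2, with 4 genes higher, ROBO3 itself among them, and 1 lower past both criteria, where 7.23% and 7.43% of all tested genes were. The ROBO4 promoter is shown because this gene went from 22 reads over the parental libraries to 901 over those of the clone.
ROBO4 promoter, chr11:124897816-124898115, minus strand: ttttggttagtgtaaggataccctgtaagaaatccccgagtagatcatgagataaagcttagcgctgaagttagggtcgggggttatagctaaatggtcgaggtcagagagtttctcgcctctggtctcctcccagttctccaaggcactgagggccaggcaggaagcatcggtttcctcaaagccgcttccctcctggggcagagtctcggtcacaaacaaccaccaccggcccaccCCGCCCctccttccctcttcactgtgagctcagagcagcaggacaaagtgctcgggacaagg
It held 11 CpG at 55.3% GC, a single GC box and neither an antioxidant response element core nor an AP-1 match.

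Counts per kb of exon allow genes of different length to be set side by side. The length used was that of all annotated exons of a gene merged, and which transcripts these cells express was not tested. Orders and shares per kb, here and for the SLIT and SRGAP genes, depend on that length. By normalized counts ROBO2 (236) was above ROBO1 (204) in KYSE70. On the per-kb scale the summed ROBO RNA of KYSE70 was mostly ROBO3. ROBO3 stood at 149 ± 7.70 normalized counts per kb, ROBO1 at 18.4 ± 2.16, ROBO2 at 14.2 ± 0.569 and ROBO4 at 1.07 ± 0.522 (SD, n = 3 libraries), and none of these neighbours overlapped between libraries. In NRF2null-KYSE70 the order was ROBO3 at 309 ± 15.6, ROBO4 at 46.8 ± 8.81, ROBO1 at 0.0936 ± 0.0891 and ROBO2 at 0.0196 ± 0.0340, the last 2 not separable. ROBO1 made up 10.1% of the summed ROBO level in KYSE70 and 0.0265% in NRF2null-KYSE70, ROBO2 7.77% and 0.00531%, ROBO3 81.5% and 86.9%, and ROBO4 0.582% and 13.1%. The sum itself went from 183 ± 5.91 to 355.5 ± 22.1 normalized counts per kb, and every library of the clone was above every KYSE70 library.

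**Figure D3:**
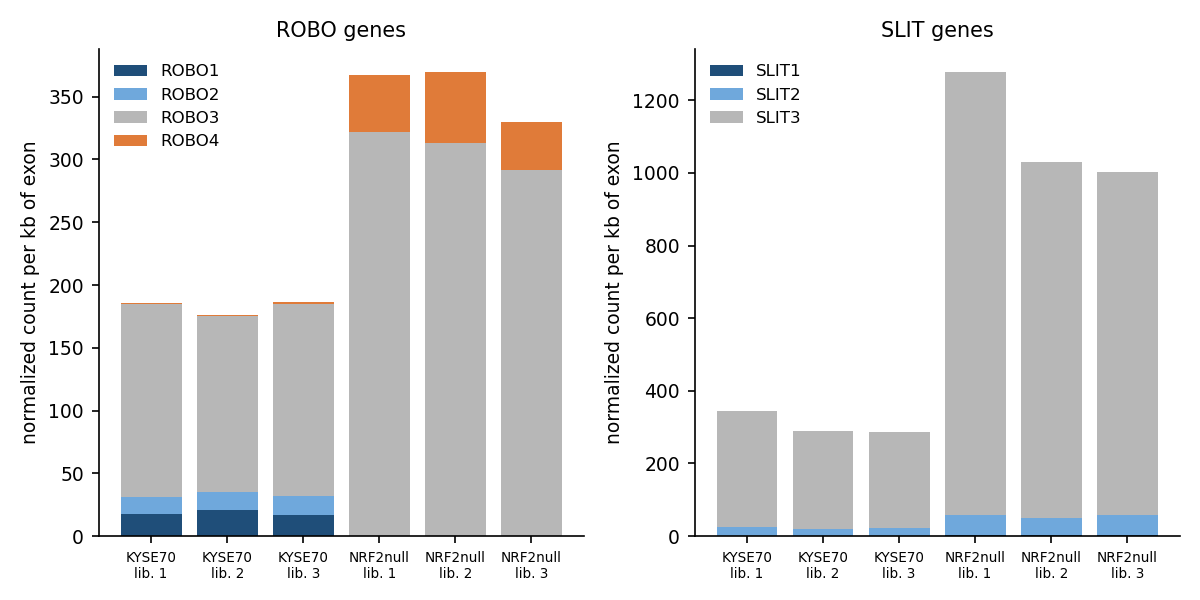
Stacked level of the ROBO genes (left) and SLIT genes (right) in each library, in normalized counts per kb of exon, 1 bar per library. ROBO1 and ROBO2 were present only in the KYSE70 bars at this scale and ROBO4 was visible in the NRF2null-KYSE70 bars, while SLIT3 made up 92.5% of the SLIT level in KYSE70 and 95.0% in NRF2null-KYSE70.

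SLIT3 (ENSG00000184347, chr5:168661740-169301139, minus strand) encodes a secreted ligand known for roles in vessel growth and in the diaphragm. It was the most abundant member in both lines, at 4554, 3837 and 3740 normalized counts in KYSE70 and at 17376, 13961 and 13498 in NRF2null-KYSE70. The libraries of the clone were all far above those of the parental line, and library 1, which stood apart, was the highest (log2FC 1.77 without it). The mean rose from 4044 ± 445 to 14945 ± 2118 normalized counts, 3.70-fold, with a log2FC of 1.88 (SE 0.093). SLIT2 (ENSG00000145147, chr4:20251905-20620561, plus strand), a ligand often found silenced in tumours, was at 261, 218 and 252 normalized counts in KYSE70 and at 625, 531 and 606 in NRF2null-KYSE70. Again the lines were well separated, by more than the spread within either. The mean rose from 243 ± 22.7 to 587 ± 49.4, 2.41-fold, with a log2FC of 1.27 (SE 0.119).

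SLIT1 (ENSG00000187122, chr10:96998038-97185959, minus strand), a ligand found mainly in the nervous system, was close to the detection limit. It was at 14.2, 7.26 and 4.22 normalized counts in KYSE70 and at 15.2, 19.6 and 17.1 in NRF2null-KYSE70. The lines did not overlap, but by 1 normalized count only, and 28 reads stood against 50. The log2 fold change was 1.07 (SE 0.541) and SLIT1 did not pass the adjusted p. Per kb of exon the order of the ligands was SLIT3, SLIT2 and SLIT1 in both lines with no overlap between neighbours, at 283.6 ± 31.2, 21.996 ± 2.05 and 0.937 ± 0.561 normalized counts per kb in KYSE70 and 1048 ± 149, 53.1 ± 4.46 and 1.89 ± 0.241 in NRF2null-KYSE70. The summed ligand level went from 306 ± 32.9 to 1103 ± 151 normalized counts per kb. SLIT2 made up 7.20% of it in KYSE70 and 4.85% in NRF2null-KYSE70.

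The promoters of SLIT2 and SLIT3 are shown because both ligands rose in the clone and their sequences differ in the motifs searched.
SLIT2 promoter, chr4:20251655-20251954, plus strand: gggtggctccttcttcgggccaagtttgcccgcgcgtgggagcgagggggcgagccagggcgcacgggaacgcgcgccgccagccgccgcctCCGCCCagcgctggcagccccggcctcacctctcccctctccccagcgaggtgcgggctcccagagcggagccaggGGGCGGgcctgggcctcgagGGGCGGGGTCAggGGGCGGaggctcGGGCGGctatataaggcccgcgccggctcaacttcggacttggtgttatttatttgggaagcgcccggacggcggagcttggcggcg
SLIT3 promoter, chr5:169301090-169301389, minus strand: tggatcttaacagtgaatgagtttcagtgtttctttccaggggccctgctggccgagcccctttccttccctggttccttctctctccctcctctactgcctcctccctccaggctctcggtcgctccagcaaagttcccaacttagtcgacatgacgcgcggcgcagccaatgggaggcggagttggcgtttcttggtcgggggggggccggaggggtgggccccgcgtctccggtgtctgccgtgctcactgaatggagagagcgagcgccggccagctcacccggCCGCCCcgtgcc
The SLIT2 window held 36 CpG at 74.3% GC, 5 GC boxes and 1 antioxidant response element core on the reverse strand, which overlaps a GC box. The SLIT3 window held 22 CpG at 64.7% GC, a single GC box and no match to the other motifs. An antioxidant response element core was found in the windows of 3 of the 10 members, SLIT1, SLIT2 and SRGAP2, and in 13.35% of all 35116 windows. An AP-1 match was found in none of the members' windows and in 7.71% of all windows. A match of letters is a description and shows no binding.

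SLIT2 and SLIT3 also share a feature within their introns. Each holds a copy of the gene for miR-218, a microRNA known to target ROBO1 RNA. The mature sequences are shown because the main arm from both hosts is identical whereas the other arms differ. Capitals mark the seed, bases 2 to 8.
hsa-miR-218-5p: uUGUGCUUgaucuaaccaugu
hsa-miR-218-1-3p: aUGGUUCCgucaagcaccaugg
hsa-miR-218-2-3p: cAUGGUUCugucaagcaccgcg
The first comes from both MIR218-1 in SLIT2 (chr4:20528299-20528319, plus strand) and MIR218-2 in SLIT3 (chr5:168768211-168768231, minus strand), and the seeds of the other arms are UGGUUCC and AUGGUUC. The precursor genes had at most 1 read in any library, but libraries of this kind do not capture mature microRNAs, so the level of miR-218 was not measured.

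Among the genes around the ligands some were higher and some lower in NRF2null-KYSE70. On either side of SLIT2, PACRGL had a log2FC of -0.22 (SE 0.078, limma adjusted p = 0.0273) and ADGRA3, an adhesion receptor, 0.12 (SE 0.066, limma adjusted p = 0.14), while LCORL was at 1.00 (SE 0.104, limma adjusted p = 3.59e-06) and the condensin subunit NCAPG at -0.06 (SE 0.054, limma adjusted p = 0.383). LCORL fell under the fold threshold in 8 of 18 alternatives, and PACRGL did not pass the adjusted p when library 1 (-0.18) or 2 (-0.23) of KYSE70 was left out, or library 3 of NRF2null-KYSE70 (-0.17). The median over 20 tested protein-coding genes within 5 Mb of SLIT2 was 0.17, against -0.01 over all tested genes. Values ran from -0.73 for CC2D2A to 2.72 for FGFBP1. Past both criteria 2 of the 20 were higher and 0 lower, where 7.23% and 7.43% of all tested genes were. Beside SLIT3, the coenzyme A synthesis enzyme PANK3 was higher by 0.86 log2 units (SE 0.061, limma adjusted p = 9.79e-08), RARS (arginyl-tRNA synthetase) was at -0.16 (SE 0.042, limma adjusted p = 0.00513), SPDL1 at 0.12 (SE 0.056, limma adjusted p = 0.0866) and NPM1 (nucleophosmin) at 0.26 (SE 0.052, limma adjusted p = 0.000988). The median over 21 genes within 5 Mb of SLIT3 was 0.15, from -0.43 for RPL26L1 to 3.14 for FGF18. Past both criteria 3 of the 21 were higher and 0 lower, beside the same 7.23% and 7.43% of all tested genes. Whether these regions changed together with the ligands was not tested.

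None of the 3 SRGAP genes passed both criteria, where 14.7% of all tested genes did. SRGAP1 (ENSG00000196935, chr12:63843761-64162217, plus strand), which inactivates CDC42 and RHOA downstream of ROBO, was at 841, 925 and 781 normalized counts in KYSE70 and at 1182, 1087 and 957 in NRF2null-KYSE70. The lowest library of the clone was just above the highest of the parental line. The mean rose from 849 ± 72.3 to 1075 ± 113, 1.27-fold, with a log2FC of 0.34 (SE 0.095) that passed the adjusted p but not the fold threshold. The median of its arm, 12q, was -0.38, and relative to it the value was 0.72.

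SRGAP2 (ENSG00000266028, chr1:206203346-206464436, plus strand), which shapes membrane protrusions, was at 3130, 2897 and 2656 normalized counts in KYSE70 and at 3473, 2967 and 3046 in NRF2null-KYSE70. The lines overlapped, and the log2FC of 0.13 (SE 0.075) did not pass the adjusted p. Humans carry partial copies of SRGAP2 that can share its reads, so its values are uncertain. SRGAP2B was at 399 ± 27.2 and 510 ± 16.8 normalized counts (log2FC 0.35, SE 0.101, limma adjusted p = 0.00908), SRGAP2C at 1020 ± 32.3 and 1286 ± 44.1 (0.33, SE 0.069, limma adjusted p = 0.00112) and SRGAP2D at 114 ± 5.16 and 145 ± 29.9 (0.33, SE 0.190, limma adjusted p = 0.157). FAM72A overlaps 524 exon bases of SRGAP2 on the other strand and had a log2FC of 0.57 (SE 0.105, limma adjusted p = 0.000446). Whether the counting used strand is not given in the sources used here.

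SRGAP3 (ENSG00000196220, chr3:8980591-9363053, minus strand), which acts on RAC1, was at 1363, 1264 and 1313 normalized counts in KYSE70 and at 1293, 977 and 1122 in NRF2null-KYSE70. Library 1 of the clone lay within the range of KYSE70 and the other 2 below it. The log2 fold change was -0.22 (SE 0.094) and did not pass the adjusted p. SRGAP3 lies on 3p with ROBO1 and ROBO2, far outside the stretch described above, and relative to the median of that arm its value turned to 0.26 and passed the adjusted p. Without library 1 of NRF2null-KYSE70 it was -0.33 and passed the adjusted p, as it did at -0.24 under TMM, -0.30 under total and -0.23 under quantile scaling. THUMPD3, a tRNA modification factor that overlaps 83 exon bases of SRGAP3 on the other strand, had a log2FC of -0.58 (SE 0.059, limma adjusted p = 2.82e-06). Relative to the median of 3p THUMPD3 was at -0.098. Per kb of exon the SRGAP genes kept the order SRGAP2, SRGAP3 and SRGAP1 in both lines, at 185 ± 15.2, 69.6 ± 2.64 and 31.1 ± 2.64 normalized counts per kb in KYSE70 and 203 ± 17.4, 59.9 ± 8.40 and 39.3 ± 4.13 in NRF2null-KYSE70, with no overlap between neighbours.

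Across all 10 members, SLIT3 was the highest per kb in both lines. In KYSE70 it was followed by SRGAP2, ROBO3, SRGAP3, SRGAP1 and SLIT2, with the libraries of SLIT2 overlapping those of ROBO1 and those of ROBO4 overlapping SLIT1. In NRF2null-KYSE70 ROBO3 had moved above SRGAP2, at 291 to 322 against 190 to 222 normalized counts per kb, and the libraries of SRGAP3, SLIT2, ROBO4 and SRGAP1 ran into one another. These orders rest on merged exon length. By normalized counts SRGAP1 (1075) was above SLIT2 (587) and ROBO4 (310) in NRF2null-KYSE70.

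The wider pathway was described by a list of 49 genes written from general knowledge, with earlier results of these data known. Of the 49 genes, 43 were tested. Past both criteria, 5 were higher and 2 lower in NRF2null-KYSE70, where 7.23% of all tested genes were higher and 7.43% lower. On the adjusted p alone 19 were higher, 13 lower and 11 did not pass, against 29.3% higher and 28.3% lower over all tested genes. Its median log2FC stood at 0.08 and the median absolute value 0.32, against 0.36 over all tested genes.

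Among partners at the surface and outside the cell, 2 of 15 tested genes were higher and 2 lower past both criteria, beside the same 7.23% and 7.43% of all tested genes. PLXNA1, a plexin that can also bind a SLIT fragment, was at 10298, 9152 and 9373 normalized counts in KYSE70 and at 28205, 21662 and 22037 in NRF2null-KYSE70 (log2FC 1.31, SE 0.086, limma adjusted p = 5.37e-08). ADAM10, the protease that sheds ROBO ectodomains, rose by 1.25 log2 units (SE 0.059, limma adjusted p = 2.65e-09), and relative to the median of its arm it was at 0.92, under the fold threshold. FLRT3, a membrane protein that interacts with ROBO1, fell from 1016 ± 19.6 to 435 ± 47.6 normalized counts, a log2FC of -1.23 (SE 0.096, limma adjusted p = 2.51e-07). FLRT3 lies on 20p, where the median was -0.77, and relative to that median its value was -0.46. TLL1, a tolloid-like protease of the family that cleaves SLIT in flies, fell from 2320 ± 95.1 to 1058 ± 60.7 normalized counts, a log2FC of -1.13 (SE 0.068, limma adjusted p = 2.25e-08). NELL2, the ligand of ROBO3, was at 947 ± 64.1 and 1870 ± 113 normalized counts with a log2FC of 0.98 (SE 0.075, limma adjusted p = 2.21e-07), just under the fold threshold, and relative to the median of 12q it was at 1.36 and passed. The netrin receptor DCC and the chemokine CXCL12 had 0 reads in every library. The proteoglycans GPC1 and SDC1, which hold SLIT at the cell surface, were at -0.01 and -0.11 and did not pass the adjusted p.

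Among the 24 tested cytoplasmic partners, 1 passed both criteria, against 14.7% of all tested genes. ABL2, an ABL-family tyrosine kinase, was at 1507, 1417 and 1386 normalized counts in KYSE70 and at 4009, 3179 and 2974 in NRF2null-KYSE70 (log2FC 1.23, SE 0.094, limma adjusted p = 2.18e-07). Its relative ABL1, which phosphorylates ROBO, went the other way at -0.34 (SE 0.068, limma adjusted p = 0.000907). The actin-elongating factors ENAH and VASP were at -0.25 (SE 0.066, limma adjusted p = 0.00611) and 0.32 (SE 0.067, limma adjusted p = 0.00112). The GTPases themselves passed the adjusted p and not the fold threshold, RAC1 at 0.34 (SE 0.044, limma adjusted p = 2.6e-05), CDC42 at -0.16 (SE 0.052, limma adjusted p = 0.0196) and RHOA at -0.47 (SE 0.046, limma adjusted p = 1.95e-06). CDC42 did not pass under limma without trend or without KYSE70 library 2 (-0.13), and ENAH did not pass under limma without trend. RHOA lies on 3p, and relative to the median of that arm it was at 0.01. USP33, a deubiquitinase that stabilises ROBO1, was at 0.07 (SE 0.051, limma adjusted p = 0.249).

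Transcription factors that act on SLIT and ROBO genes in neurons were few, with 4 of 7 tested. Past both criteria 2 of the 4 were higher and 0 lower, beside 7.23% and 7.43% of all tested genes. LHX2 rose from 75.7 ± 8.67 to 233 ± 17.7 normalized counts (log2FC 1.61, SE 0.174, limma adjusted p = 5.15e-06) and LHX4 from 30.6 ± 10.4 to 145 ± 17.5 (2.25, SE 0.278, limma adjusted p = 1.69e-05). LDB1, the cofactor of LHX proteins, fell from 5970 ± 138 to 4518 ± 74.6 normalized counts (-0.40, SE 0.047, limma adjusted p = 9.85e-06), and HOXA2 was at 0.50 (SE 0.809, limma adjusted p = 0.621). LHX9 (17 reads in KYSE70 and 0 in NRF2null-KYSE70), LHX3 (11 and 2 reads) and ISL1 (5 and 0 reads) were too low to be tested.

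**Figure D4:**
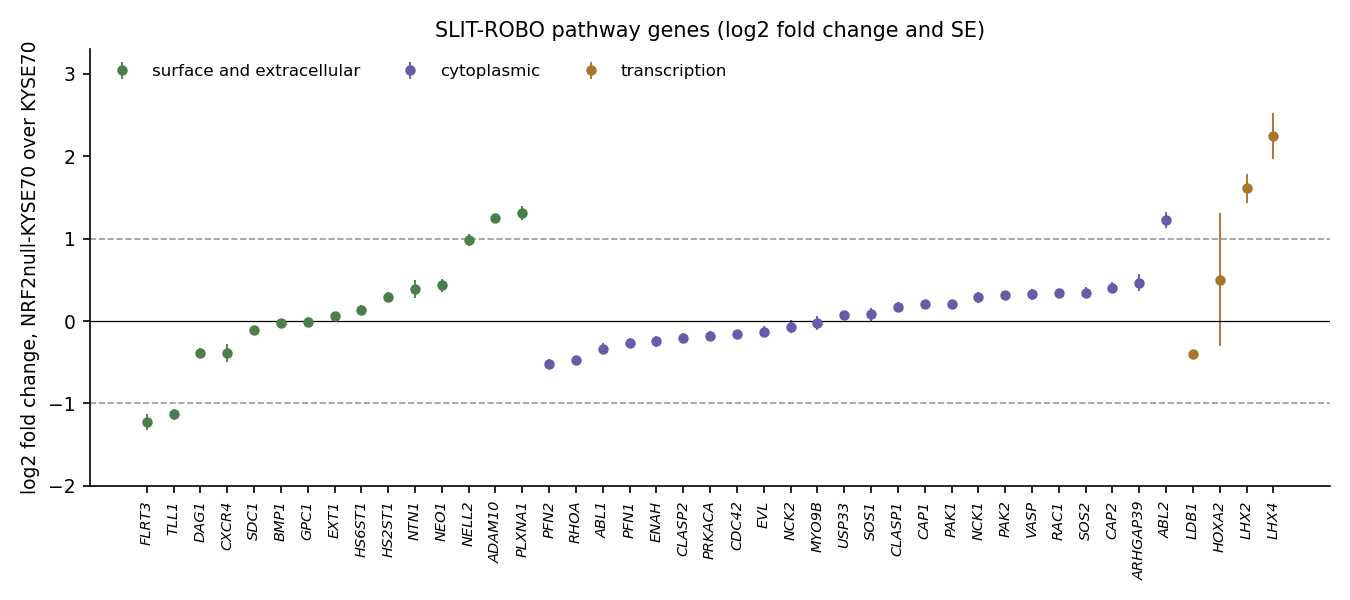
Log2 fold change (NRF2null-KYSE70 over KYSE70) with SE of the 43 tested pathway genes, grouped into surface and extracellular, cytoplasmic and transcription genes and sorted within each group, with dashed lines at 1 log2 unit either way. Of these, 36 lay between the dashed lines, and LHX4 (2.25) and FLRT3 (-1.23) were at the ends.

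ROBO2 had the largest absolute log2FC among members with a mean of at least 100. Its pattern over the 6 libraries was compared, as a description, with 11996 genes with a mean of at least 100. The closest were ACTR3 (Pearson r = 0.9996), ZNF485 (r = 0.9995) and MAGEE1 (r = 0.9994), and with only 2 lines to separate, 507 genes had r over 0.99. ACTR3, a subunit of the actin-nucleating ARP2/3 complex, separated the lines in the same way with a log2FC of -0.29. ZNF485 and MAGEE1 fell as far as ROBO2 did, ZNF485 from 644 reads to 1 (log2FC -7.34) and MAGEE1 from 723 reads to 1 (-7.50).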

How the data were processed

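Quality-filtered reads were aligned to hg38 with STAR 2.6.90c and counted per gene with featureCounts 1.5.1, after FastQC 0.11.5 and cutadapt 1.12 per the submitters' processing notes. The authors deposited a signal, DESeq2-normalized counts. Its columns were named by line without a replicate number, and libraries are numbered by column order within a line. Dividing by the value of 1 read (0.889 to 1.14) gave whole reads for 100% of values in each library (tolerance 0.1 read).

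limma 3.58.1 (R 4.3.3, lmFit, eBayes with trend) was run on log2(normalized count + 1) with the line as the only term, over genes with a mean of at least 10, two-sided, with Benjamini-Hochberg adjustment over all 15994 genes. Fold changes are on that scale, which understates those of low genes. Genes were called at an adjusted p below 0.05 plus a change of 1 log2 unit or more. On the recovered reads edgeR 4.0.16 called 2350 genes and DESeq2 1.42.0 called 2341, against 2344. Replicates were separate samples by label only, so p-values measure the spread between these libraries. Intervals for read ratios were exact (Clopper-Pearson, 95%) on reads pooled over the libraries of a line, and leave out the spread between libraries. Positions and merged exon lengths came from GENCODE v44 (hg38), where 58472 of 58884 identifiers were found.

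Members and lists were chosen with earlier results of these data known. Genes named were the members, NFE2L2, pathway genes past both criteria with a mean of at least 50, a set of actin and GTPase genes whatever their values, the 2 nearest tested protein-coding genes on either side of members past both criteria, overlapping or copied genes and the 3 genes most like ROBO2. Other genes were chosen after their values were seen. Scripts were tested on simulated data.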

Additional observations from a re-analysis of the deposited data

How the results depend on the processing

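All 6 members past both criteria kept direction and passed the adjusted p under the 18 alternatives run (pseudocounts of 0.1 and 5, a filter at a mean of 50 or none, TMM, total and quantile scaling, limma without trend or with robust eBayes, edgeR, DESeq2, centring on the median of each chromosome arm, and each library left out), and 5 to 6 members passed both criteria, ROBO3 dropping out at 0.97 under total scaling. Log2 fold changes ran from -8.32 to -5.12 for ROBO1, -10.06 to -5.50 for ROBO2, 4.73 to 5.65 for ROBO4, 1.16 to 1.339 for SLIT2 and 1.76 to 1.97 for SLIT3. SLIT1 did not pass in any of the 17 alternatives that gave a value. SRGAP3 passed the adjusted p as lower under TMM, total and quantile scaling. Centring on arms turned it to 0.26 and RHOA to 0.0083, and total scaling turned USP33 to -0.0029. The filter at a mean of 50 left 1511 genes called among 13004 tested, and leaving out a library gave 2226 to 2337. Of genes called, 50.7% were lower, 46.7% under quantile and 56.1% under total scaling. No paired analysis was possible because the columns carried no replicate numbers. Depth limited ROBO1, ROBO2, ROBO4 and SLIT1, with 3 reads, 1 read, 22 reads and 28 reads in their lower line.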
